A study of Homo sapiens with 48 samples.

Results

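The Krüppel-like factors described here are 10 genes, KLF2, KLF3, KLF4, KLF5, KLF6, KLF7, KLF9, KLF10, KLF11 and KLF13, taken by symbol from the 60610 genes of the count table. The set holds 10 of the 18 genes of the family in the table, was proposed with earlier results of these data known, and leaves out KLF8, whose change under AII + EGF at 6 h was larger in size than that of any of the 10. All 10 passed the filter on low counts, as did 19626 genes in all. The cells were HEK293, a human embryonic kidney line, as 1 clone that stably expresses the human type 1 receptor of angiotensin II (AT1R) and was obtained by limited dilution under puromycin and losartan, a blocker of that receptor. All groups shared this clone and medium without serum. Control cells (Con) received no stimulus, and the others received 1 nM angiotensin II (AII), 10 µg/L epidermal growth factor (EGF) or both together (AII + EGF), each for 6 h or 24 h, which gave 8 groups. Messenger RNA was sequenced and fragments were counted per gene, and the study asked whether both receptors together change transcription differently from each alone.

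Krüppel-like factors are transcription factors with 3 zinc fingers at the C-terminus that bind GC boxes and CACCC elements in promoters, the same kind of element that the related SP factors use. Outside the fingers the members differ, and they recruit different cofactors. KLF3 works mostly as a repressor through CtBP proteins, and KLF9, KLF10, KLF11 and KLF13 carry a short domain that binds SIN3A. KLF2, KLF4, KLF5 and KLF6 activate many of their targets. Several members are early-response genes to growth factors, and KLF2, KLF4 and KLF5 are known from vascular cells, where KLF2 and KLF4 are linked to quiescence and KLF5 to growth.

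Of the 8 members with a promoter window in RefSeq (GRCh38.p14), 4 are shown because they span the responses at 6 h: KLF5 and KLF13 rose, KLF11 lay below every control library without reaching the fold minimum, and KLF2 was too low to be called. RefSeq lists 2 windows for KLF5, 2 for KLF11 and 4 for KLF7, and the stretches of KLF5 and KLF11 precede the downstream one of their 2 starts, inside the spans of these genes. On the plus strand, the stretches of KLF5, KLF13 and KLF2 are the 250 bases before the annotated start of transcription, while that of KLF11 is cut to 200 bases and ends 51 bases before it. Capitals mark, on either strand, the GC box GGGCGG, the element CACCC, the cyclic AMP element TGACGTCA, the EGR element GCGNGGGCG, the AP-1 element TGANTCA, the CArG box or the MEF2 site, where capitals of adjacent or overlapping matches run together. The stretches are chr13:73058755-73059004 for KLF5, chr15:31326585-31326834 for KLF13, chr2:10043971-10044170 for KLF11 and chr19:16324576-16324825 for KLF2.
KLF5: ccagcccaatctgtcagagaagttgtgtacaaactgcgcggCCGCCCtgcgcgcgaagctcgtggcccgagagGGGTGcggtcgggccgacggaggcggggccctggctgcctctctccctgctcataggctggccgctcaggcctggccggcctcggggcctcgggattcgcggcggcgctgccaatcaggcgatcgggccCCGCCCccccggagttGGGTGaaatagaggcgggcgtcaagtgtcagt
KLF13: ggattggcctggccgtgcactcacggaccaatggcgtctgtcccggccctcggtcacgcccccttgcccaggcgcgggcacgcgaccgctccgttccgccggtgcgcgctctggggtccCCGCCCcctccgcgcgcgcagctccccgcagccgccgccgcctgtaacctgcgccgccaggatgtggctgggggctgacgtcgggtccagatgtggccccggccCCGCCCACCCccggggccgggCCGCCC
KLF11: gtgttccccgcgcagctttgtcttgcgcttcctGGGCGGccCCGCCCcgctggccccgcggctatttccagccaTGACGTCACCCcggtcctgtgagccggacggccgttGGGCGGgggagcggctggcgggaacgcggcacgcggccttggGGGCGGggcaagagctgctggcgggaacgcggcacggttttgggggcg
KLF2: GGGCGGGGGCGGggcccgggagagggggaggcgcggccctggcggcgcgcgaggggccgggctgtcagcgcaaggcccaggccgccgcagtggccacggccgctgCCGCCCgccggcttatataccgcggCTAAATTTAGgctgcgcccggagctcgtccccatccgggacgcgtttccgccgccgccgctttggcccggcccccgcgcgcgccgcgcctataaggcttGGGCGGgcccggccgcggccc
The stretch printed for KLF5 held 2 GC boxes (GGGCGG) and 2 CACCC elements, the KLF13 stretch 3 and 1, and the KLF11 stretch 4 and 1. The KLF11 stretch also held 1 cyclic AMP response element (TGACGTCA). The KLF2 stretch held 4 GC boxes, 1 EGR element (GCGNGGGCG), 1 MEF2 site and no CACCC element. Over all 35116 windows of 300 bases, 45% held a GC box, 59.9% a CACCC element, 1.85% TGACGTCA, 9.43% GCGNGGGCG, 7.71% the AP-1 element TGANTCA, 1.29% a CArG box and 0.572% a MEF2 site. Of the 13 windows of members, 8 held a GC box and 7 a CACCC element. None held TGANTCA, 3 held GCGNGGGCG, and 1 of the 4 windows of KLF7 held a CArG box. Of 2 further elements sought, CACGTG was in 4 of the 13 (7.26% of all windows) and CCGGAA in 0 (17.2%). The median GC content was 70% over the member windows and 58.7% over all windows. These matches describe the letters of the windows, and binding was not measured.

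The members lie on 8 chromosomes in hg38, the build of the files. KLF7 and KLF11 are on chromosome 2, KLF4 and KLF9 on chromosome 9, and the others are KLF2 on 19, KLF3 on 4, KLF5 on 13, KLF6 on 10, KLF10 on 8 and KLF13 on 15. By RefSeq, KLF5 (ENSG00000102554) spans chr13:73054976-73077538 and KLF13 (ENSG00000169926) spans chr15:31326835-31435665. KLF7 (ENSG00000118263) spans chr2:207074137-207173851, KLF10 (ENSG00000155090) chr8:102648784-102655725 and KLF11 (ENSG00000172059) chr2:10043550-10054836. The values below are summed over all transcripts of a gene, whichever start they use.

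The labels give 6 libraries to each group, 48 in all, with 17.8 to 36.2 M counts each (M stands for 1000000). Among all 1128 library pairs there were 4 whose counts agreed more closely than sampling noise alone gives. Their chi-square per degree of freedom was 0.397 to 0.505, below 1, against at least 2.02 in the other pairs. Of these 4 pairs, 3 joined libraries labelled as different groups. The 8 libraries of these pairs, with 34.7 to 36.2 M counts each, were left out. The libraries labelled AII 6 h replicate 6 and AII + EGF 6 h replicate 6 were left out as well. On a scale over 1492 genes from 0 (AII 6 h) to 1 (AII + EGF 6 h), they lay at 0.854 and -0.006. The other 38 libraries held 17.8 to 30 M counts and left 4 control, 5 AII, 3 EGF and 4 AII + EGF libraries at 6 h and 6, 5, 5 and 6 at 24 h. Values are counts per 1000000 (CPM) scaled with TMM factors, given as mean ± SD over libraries. Nothing in the labels says that the libraries of a group came from separate cultures, so p-values measure the spread between libraries, which may be technical. Some kept libraries were much closer than the median pair of a labelled group (48.3 on the chi-square scale above). AII 6 h replicates 1 and 2 were at 2.02, and EGF 6 h replicates 3 and 4 at 3.32. Library numbers, SEs and statements of no overlap may therefore rest on fewer separate units, above all for EGF at 6 h. A gene was called where the adjusted p of the edgeR quasi-likelihood test (Benjamini-Hochberg) was under 0.01, the fold change reached 1.5 in either direction and the higher mean was above 5 CPM.

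The last 8 sample titles, which hold replicate 6 of every group, stood apart for some members. They form title runs 7 and 8, a title run being 1 passage of the titles through the 4 treatments, which the labels do not call a batch. In all 5 groups whose replicate 6 was kept, this library was the lowest for KLF9, KLF10 and KLF11. KLF10 there was at 0.436 to 0.528 of the mean of the other libraries of the group, KLF9 at 0.615 to 0.652 and KLF11 at 0.748 to 0.910. It was the lowest in 3 of the 5 groups for KLF5 and KLF6, where its ratio went down to 0.758 and 0.724, and in 2 for KLF7 (0.746) and KLF13 (0.817). For KLF2 (0.538) and KLF3 (0.643) it was the lowest in 1 group, and for KLF4 in 0. Several results that rest on these libraries are given also over the 33 libraries without them, an alternative chosen after the values were seen. Such values are not given for the 24 h changes of KLF6, KLF9, KLF10 and KLF11 against control. They are also not given for KLF11 under EGF at 6 h, for KLF10 under AII + EGF against EGF at 6 h or for KLF10 between the controls of both times.

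The 7 HEK293 markers differed widely in level. The neurofilament genes NEFM and NEFL had group means of 3114 to 8592 and 653 to 1400 CPM. VIM had 190 to 374 CPM, KRT8 34 to 101 CPM and KRT18 47.2 to 92.3 CPM. INA was at 3.97 to 16.6 CPM and PAX2 at only 0.505 to 2.96 CPM. At 6 h the summed mean of 7 markers was 4605 CPM without stimulus against 9610 CPM with AII + EGF, where 3 of the 7 were called higher, and its part in the results below was not tested. The 6 endothelial markers summed to 0.616 to 1.92 CPM by group, with VWF highest at up to 1.13 CPM, while PECAM1 and CDH5 stayed at or under 0.136 CPM. The 6 leukocyte markers summed to 0.677 to 1.46 CPM, with CD79A at up to 0.904 CPM and PTPRC and CD3E at or under 0.0363 CPM. Of the 5 smooth muscle markers SMTN had 25.6 to 36.3 CPM and the others at most 1.46 CPM. The 5 fibroblast markers summed to 22.9 to 57.2 CPM, nearly all from COL1A1 (13.6 to 34.7 CPM) and COL3A1 (8.84 to 23.9 CPM). COL3A1 was called higher under AII at 6 h and lower under AII + EGF at 24 h, and it and COL1A1 were called higher in control cells at 24 h than at 6 h. The part of these genes in the results below was not tested either. Whether a change came from more RNA per cell or from more cells with that RNA cannot be told apart in bulk samples.

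In unstimulated cells at 6 h the 10 members differed widely in level. Levels per kilobase of exon were compared, with lengths of the merged exons from a GENCODE annotation of another build (GRCh37), so they are approximate. KLF4 was highest at 25.1 ± 1.91 CPM per kilobase (SD, n = 4), and KLF10 (17 ± 4.69) and KLF3 (15.8 ± 3.12) followed, whose SDs overlap. KLF9 was at 10.2 ± 2.2, KLF11 at 7.27 ± 1 and KLF13 at 6.51 ± 0.322 CPM per kilobase, and KLF11 and KLF13 did not differ beyond their spread. KLF6 (5.23 ± 0.549) and KLF5 (5.21 ± 0.291) were also within their spread. KLF2 was at 0.557 ± 0.0248 and KLF7 at 0.257 ± 0.0864 CPM per kilobase, at the bottom of the order. Among the other members of the family, KLF16 (10.3 ± 1.32) and KLF8 (5.48 ± 1.1) lay within the upper range, while KLF1, KLF17 and KLF18 were at or near 0.

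**Figure D1:**
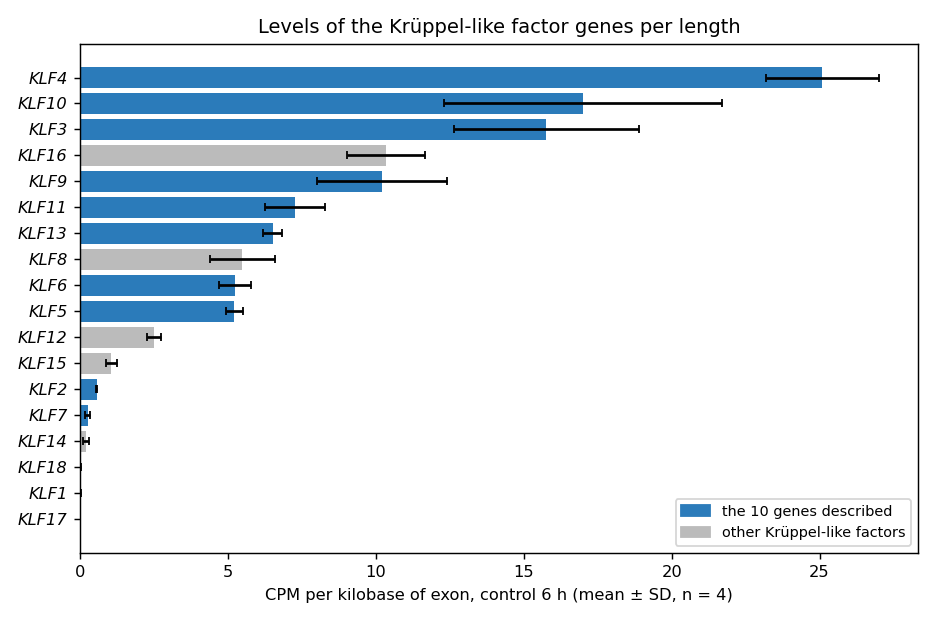
Mean level of 18 Krüppel-like factor genes in the 4 control libraries at 6 h, in CPM per kilobase of exon, with error bars of 1 SD. Blue bars are the 10 genes described, grey bars other members of the family; KLF4 stands highest at 25.1, and KLF2 and KLF7 stand lowest among the blue bars.

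At 6 h, 3 of the 10 members were called higher under AII + EGF (KLF5, KLF13 and KLF10) and none lower. KLF2 and KLF7, under 5 CPM in every group mean at 6 h, could not be called there whatever their change, which left 8 that could. EGF alone gave 2 calls, KLF5 and KLF13, both higher. AII alone gave none, where 1 of the 10 had an unadjusted edgeR p under 0.05 and DESeq2 called none. Over all tested genes 12% were called in either direction under AII + EGF, 1.94% under EGF and 0.469% under AII. The libraries of 7 of the 10 members did not overlap with the controls under AII + EGF, against 33.4% of all genes, 5 of 10 under EGF against 22.1%, and 1 of 10 under AII against 7.52%. The median log2 change of the 10 members was 0.22 under AII + EGF, 0.08 under EGF and 0.16 under AII. All comparisons with control at one time share its 4 control libraries. The kept libraries at 6 h were also uneven over title runs. AII and AII + EGF kept replicates 1 and 2 of title run 1, while control and EGF kept none of that run. Differences of AII or AII + EGF from control or EGF are thus in part tied to title run.

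KLF5, which promotes proliferation and remodelling in smooth muscle and epithelium, showed the largest change of the 10. The 4 control libraries at 6 h were at 20.3, 19.6, 19 and 17.7 CPM. Under AII they were at 18.8, 21.3, 23.2, 23.5 and 21.6 CPM, and under EGF at 31.1, 32.1 and 28.9 CPM. Under AII + EGF they were at 47.8, 42.7, 49.3 and 48.6 CPM. The AII libraries overlapped with control, whereas EGF lay above both, and AII + EGF lay above all other groups at 6 h. The control mean of 19.2 ± 1.07 CPM (SD, n = 4) compares with 47.1 ± 2.97 CPM (n = 4) for AII + EGF, a log2 change of 1.30 ± 0.11 (SE, adjusted p = 5.8e-12). The change was 0.68 ± 0.12 under EGF (adjusted p = 1.0e-04) and 0.18 ± 0.11 under AII (adjusted p = 0.53). Under AII + EGF it stayed called in every alternative, and leaving out 1 library moved it between 1.26 and 1.34. With the 40 libraries that include those whose labels are in doubt, the EGF change was 0.68 with an adjusted p of 0.082.

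KLF13, which binds SIN3A and is known as a late activator of the chemokine gene CCL5 in T cells, rose with KLF5. Control libraries at 6 h were at 59.6, 65.7, 61.1 and 58.9 CPM. Those of AII were at 83.9, 83.9, 76.3, 72.1 and 81 CPM, and those of EGF at 85.5, 92.3 and 99.6 CPM. Those of AII + EGF were at 129, 129, 122 and 128 CPM. All 3 stimulated groups lay above the controls without overlap, in the order AII, EGF, AII + EGF, and each group was clear of the next. The log2 change was 1.05 ± 0.09 under AII + EGF (adjusted p = 8.5e-12) and 0.59 ± 0.10 under EGF (adjusted p = 4.8e-05). Under AII it was 0.37 ± 0.09 with an adjusted p of 0.011, which misses the threshold. The EGF change, 1.51-fold, sits at the fold minimum: it fell under it without control replicate 3 or 6 or EGF replicate 5 (0.54 to 0.58) and over the 33 libraries (0.56), each with an adjusted p under 0.01. DESeq2 gave an adjusted p of 0.0015 for the change of 0.38 under AII, also under the fold minimum.

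KLF10, a gene induced early by transforming growth factor β and a repressor through SIN3A, was the third call under AII + EGF. Control libraries at 6 h were at 77.3, 76.2, 67.4 and 38.9 CPM, where the last is replicate 6. Under AII they were at 69.2, 71.2, 81.3, 85.2 and 74.5 CPM, under EGF at 106, 103 and 101 CPM, and under AII + EGF at 126, 113, 123 and 130 CPM. The EGF and the AII + EGF libraries lay above all controls, and AII + EGF above EGF. The edgeR test of AII + EGF against EGF gave a log2 change of 0.25 ± 0.27 (adjusted p = 0.63), not called. The change under AII + EGF was 0.92 ± 0.25 (adjusted p = 0.0040), and that under EGF 0.67 ± 0.27 (adjusted p = 0.15). Control replicate 6 was the one library of title run 7 in this comparison. Over the 33 libraries the change was 0.74 under AII + EGF (adjusted p = 7.6e-07) and 0.48 under EGF (adjusted p = 0.0040, under the fold minimum). Leaving out only control replicate 6 gave 0.74 with an adjusted p of 0.030, and leaving out AII + EGF replicate 5 gave 0.90 with an adjusted p of 0.011. With all 48 libraries it was 0.55 (adjusted p = 0.045).

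**Figure D2:**
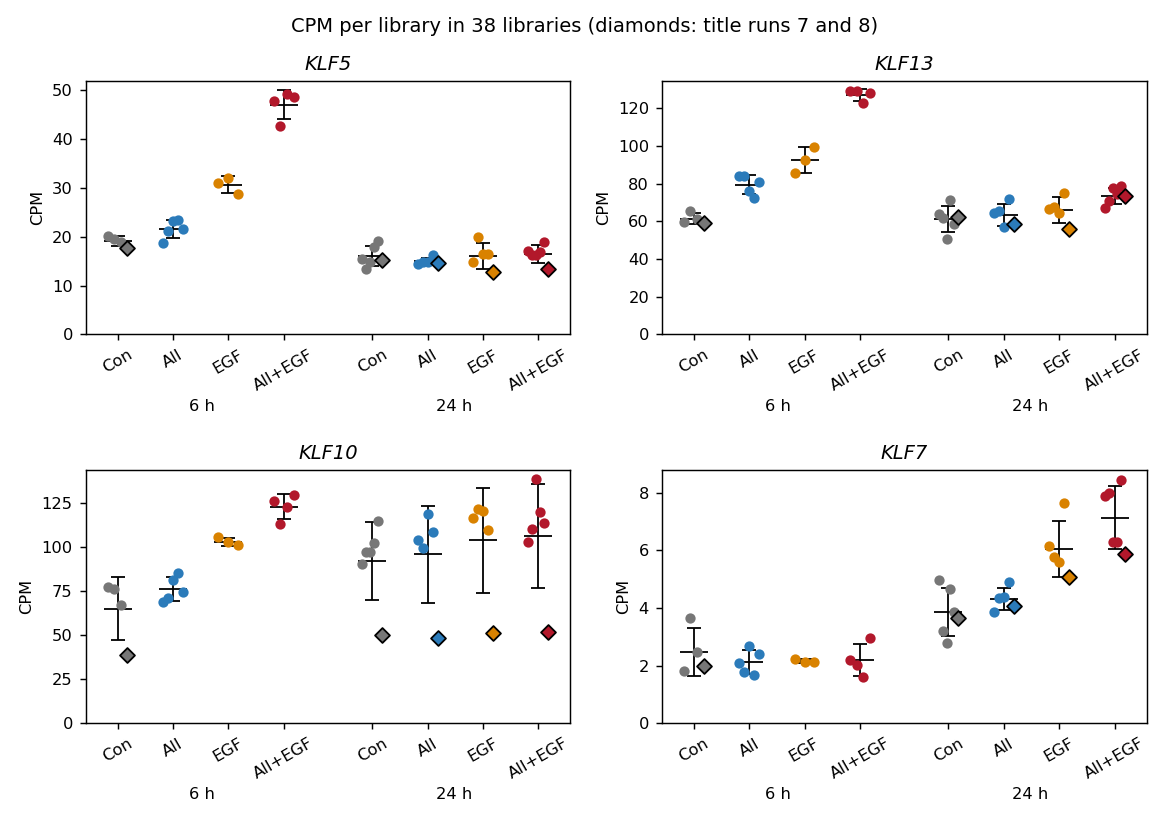
CPM of KLF5, KLF13, KLF10 and KLF7 in each of the 38 libraries, by stimulus and time, with bars at the mean ± SD; diamonds are libraries of title runs 7 and 8. KLF5 and KLF13 step up from control to AII + EGF at 6 h, KLF13 is higher under AII + EGF at 24 h by 0.26 on the log2 scale with overlapping libraries, the KLF10 diamonds lie below the other libraries of their group, and KLF7 is raised under EGF and AII + EGF at 24 h.

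KLF11, the closest relative of KLF10 and likewise a SIN3A-binding repressor, changed in the other direction. Its control libraries at 6 h were at 36.7, 36, 34.2 and 26.6 CPM, and those under AII + EGF were at 24.3, 23.6, 22.7 and 23.7 CPM. AII + EGF lay below every control, while AII, at 31 to 35.5 CPM, overlapped with control. The change under AII + EGF was -0.50 ± 0.10 (adjusted p = 8.8e-05), under the fold minimum and so not called. Over the 33 libraries it was -0.60 (adjusted p = 4.7e-07) and was called. KLF11 was at 28.3 to 29.5 CPM under EGF, and the change was -0.21 ± 0.10 (adjusted p = 0.28).

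KLF4, a zinc finger factor known from reprogramming and from quiescent endothelium, and KLF6, an early growth-response gene, moved by less than 1.5-fold at 6 h. KLF4 was at 96.2, 87.4, 84.5 and 99.2 CPM in control and at 71.4, 74.8, 71.6 and 76.5 CPM under AII + EGF. The groups did not overlap, with a change of -0.32 ± 0.09 (adjusted p = 0.0067), which over the 33 libraries was -0.29 (adjusted p = 0.031). KLF6 was at 31, 34.4, 35.2 and 27.9 CPM in control and at 40, 37.4, 43.5 and 46.7 CPM under AII + EGF, also without overlap. Its change was 0.38 ± 0.11 (adjusted p = 0.0073), and 0.31 (adjusted p = 0.013) over the 33 libraries.

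KLF3 and KLF9 gave no call at 6 h under any stimulus. KLF3, the CtBP-dependent repressor, ranged from 97 to 123 CPM over the 12 stimulated libraries, and 3 of the 4 controls, at 115 to 121 CPM, lay inside that range. Control replicate 6 was at 75.3 CPM. The change of KLF3 under AII + EGF was 0.06 ± 0.10, and -0.07 without that library. KLF9, which responds to glucocorticoid and thyroid hormones, was at 67 to 68.8 CPM under AII + EGF and at 36.1 to 60.1 CPM in control, with a change of 0.36 ± 0.17 (adjusted p = 0.10). Control replicate 6 was the library at 36.1 CPM, and the change was 0.21 without it (adjusted p = 0.38) and 0.21 over the 33 libraries (adjusted p = 0.084). KLF2 (1.02 to 2.36 CPM over all libraries at 6 h) and KLF7 (1.6 to 3.65 CPM) lay under the 5 CPM that a call needs. Their changes under AII + EGF were 0.09 ± 0.30 and -0.18 ± 0.21, with 95% intervals of -0.53 to 0.70 and -0.60 to 0.25. Under EGF at 6 h the log2 changes not given above were -0.27 ± 0.33 for KLF2, 0.09 ± 0.11 for KLF3, -0.27 ± 0.10 for KLF4, 0.35 ± 0.12 for KLF6, -0.20 ± 0.22 for KLF7 and 0.06 ± 0.18 for KLF9 (adjusted p of 0.084 to 0.90). Under AII at 6 h they were 0.16 ± 0.29 for KLF2, 0.16 ± 0.09 for KLF3, -0.11 ± 0.09 for KLF4, 0.12 ± 0.11 for KLF6, -0.22 ± 0.20 for KLF7, 0.23 ± 0.16 for KLF9, 0.23 ± 0.24 for KLF10 and -0.01 ± 0.09 for KLF11 (adjusted p of 0.51 to 0.99).

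**Figure D3:**
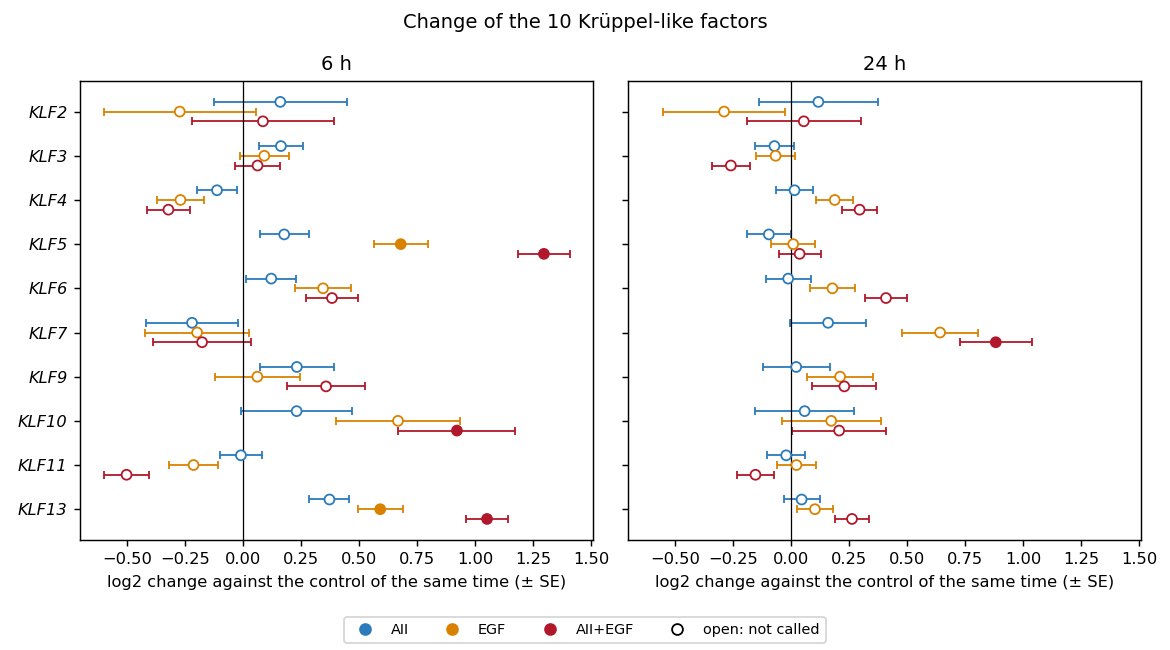
Log2 change of each of the 10 genes against the control of the same time, with bars of 1 SE, for AII, EGF and AII + EGF at 6 h and 24 h; filled points were called. At 6 h the filled points are KLF5 and KLF13 (EGF and AII + EGF) and KLF10 (AII + EGF), at 24 h KLF7 alone.

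AII + EGF was set against each single stimulus to ask whether the joint level exceeded that of either. Against EGF at 6 h 1 of the 10 members, KLF5, was called (2.92% of all genes were), with a log2 change of 0.62 ± 0.12 (adjusted p = 3.7e-04). The AII + EGF libraries of KLF5 were at 42.7 to 49.3 CPM, above the EGF libraries at 28.9 to 32.1 CPM. KLF13 was 0.46 ± 0.10 higher on the log2 scale (adjusted p = 0.0013), under the fold minimum. The KLF5 call was lost without EGF replicate 5 (0.57, adjusted p = 0.0070) and with all 48 libraries (0.43, adjusted p = 0.089). Against AII at 6 h, KLF5 (1.12 ± 0.10, adjusted p = 7.6e-11) and KLF13 (0.68 ± 0.08, adjusted p = 7.8e-08) were called, with 7.6% of all genes. KLF10 was 0.69 ± 0.24 higher (adjusted p = 0.027, and 2.4e-07 over the 33 libraries, where the change was 0.68). KLF11 was -0.49 ± 0.09 apart from AII (adjusted p = 8.7e-05), under the fold minimum, and -0.29 ± 0.10 apart from EGF (adjusted p = 0.071). Between EGF and AII at 6 h none of the 10 was called (0.673% of all genes), although 3 of the 10 had an unadjusted edgeR p under 0.05. KLF5 differed by 0.50 ± 0.11 (adjusted p = 0.0064), under the fold minimum.

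The interaction, the log2 change under AII + EGF minus the sum of both single changes, was called for none of the 10 at 6 h, and for 0.229% of all genes. It was 0.44 ± 0.16 for KLF5 (adjusted p = 0.24) and 0.09 ± 0.13 for KLF13 (adjusted p = 0.92). The one unadjusted p under 0.05 among the 10 was that of KLF5, and DESeq2 called none either. On the linear scale, KLF5 under AII + EGF exceeded the sum of control and both single effects by 13.9 ± 2.03 CPM (SE), which is 6.83 SE. KLF13 exceeded it by 16.6 ± 5.17 CPM, which is 3.21 SE, and the other 8 members by less than 2 SE in either direction. The excess rests on which libraries were kept: with all 48 it was 3.31 CPM for KLF5 and 0.74 CPM for KLF13, and with the 40 that include the doubted labels it was 4.81 CPM for KLF5 and -3.35 CPM, of opposite sign, for KLF13. At 24 h no member was called for the interaction (0% of all genes), and no linear excess reached 2 SE.

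The libraries with doubted or duplicated labels bear on these values. With factors over all 48 libraries, the library labelled AII 6 h replicate 6 had 42.6 CPM of KLF5 and 119 CPM of KLF13, and the one labelled AII + EGF 6 h replicate 6 had 19.1 and 60.7 CPM. Of the near-identical libraries labelled EGF (replicate 1) and AII + EGF (replicate 4), the first had 36.3 and the other 36.1 CPM of KLF5. The pair labelled EGF 6 h replicates 2 and 6 had 25.1 and 25.6 CPM. Keeping 1 library of each pair left KLF5 and KLF13 called under AII + EGF, whichever was kept.

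**Figure D4:**
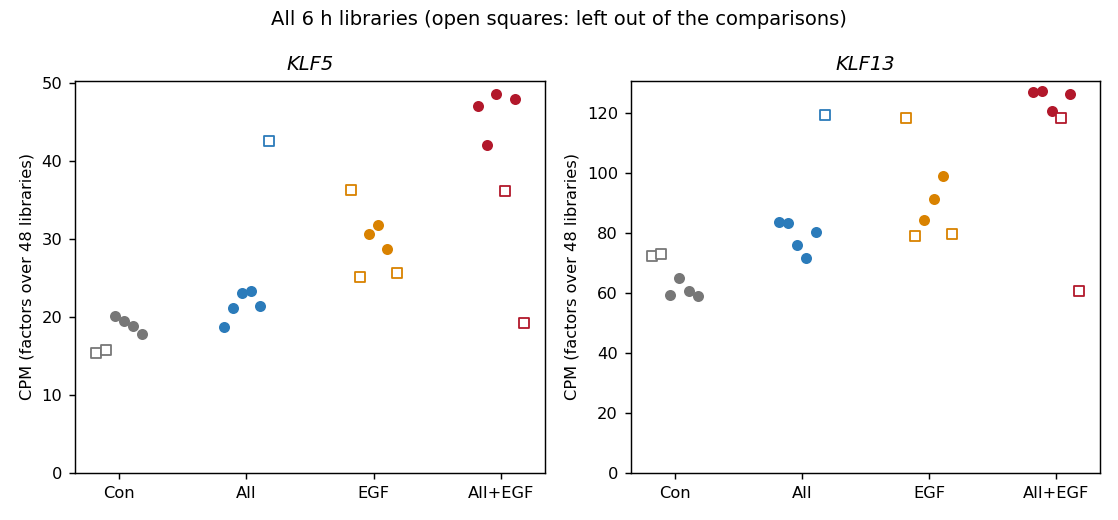
CPM of KLF5 and KLF13 in all 24 libraries at 6 h by labelled group, with factors fitted over 48 libraries; open squares are the libraries left out of the comparisons. The open square labelled AII at 42.6 CPM of KLF5 lies among the AII + EGF libraries, and the open square labelled AII + EGF at 19.1 CPM among the controls.

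At 24 h KLF7 was the one member called, under AII + EGF. KLF7 is the factor known for axon growth, and it is expressed at low level in many tissues. Control libraries at 24 h had 2.79 to 4.99 CPM with a median of 3.75, and those under AII were at 3.87, 4.36, 4.39, 4.9 and 4.08 CPM. Under EGF they were at 6.17, 5.77, 5.58, 7.64 and 5.06 CPM, and under AII + EGF at 5.89 to 8.46 CPM with a median of 7.09. AII overlapped with control, and every EGF and AII + EGF library lay above every control and AII library. The log2 change was 0.88 ± 0.16 under AII + EGF (adjusted p = 8.0e-05, among 2.9% of genes called) and stayed between 0.81 and 0.97 with 1 library left out. Under EGF it was 0.64 ± 0.16 (adjusted p = 0.027), not called, while DESeq2 called it (0.65, adjusted p = 0.0040). EGF gave 0.245% and AII 0% calls over all genes at 24 h. Libraries without overlap to control were found for 2 of the 10 under AII + EGF (4.73% of all genes), 1 under EGF (1.53%) and 0 under AII (0.127%). Against AII, AII + EGF raised KLF7 by 0.72 ± 0.16 (adjusted p = 0.0032, with 1.45% of genes called), a call lost without AII replicate 1 or 6 or AII + EGF replicate 5 (0.67 to 0.70, adjusted p 0.011 to 0.012). Against EGF no member was called at 24 h (0.0917% of genes), with 4 unadjusted edgeR p-values under 0.05, and between EGF and AII none was either (0.0255% of genes, 2 such p-values). Against EGF, KLF7 differed by 0.24 ± 0.16 (adjusted p = 0.63).

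Other members moved at 24 h by less than the fold minimum under AII + EGF. KLF6 was at 27.1 to 36.4 CPM (median 31) in control and 31.5 to 46 CPM (median 42.8) under AII + EGF, a change of 0.41 ± 0.09 (adjusted p = 0.0014). The groups overlapped through replicate 6 under AII + EGF, its lowest library. KLF4 was at 72.6 to 96.4 CPM (median 79.5) in control and 86.5 to 113 CPM (median 99) under AII + EGF, a change of 0.30 ± 0.08 (adjusted p = 0.0048). KLF13 was at 50.4 to 71.3 CPM (median 62.1) and 66.9 to 78.5 CPM (median 73.9), a change of 0.26 ± 0.07 (adjusted p = 0.0098). KLF3 lay lower without overlap, at 67.2 to 86.6 CPM in control and 58.5 to 67.1 CPM under AII + EGF, but its change of -0.26 ± 0.08 had an adjusted p of 0.020. KLF5 was back at 13.4 to 18.9 CPM under AII + EGF against 13.5 to 19.1 CPM in control, with a change of 0.04 and a 95% interval of -0.15 to 0.22. KLF10 changed by 0.21 ± 0.20 (adjusted p = 0.52), with 90.7 to 139 CPM in all control and AII + EGF libraries except replicate 6, which had 50.3 and 51.9 CPM. KLF9 changed by 0.23 ± 0.14 (adjusted p = 0.25), KLF11 by -0.15 ± 0.08 (adjusted p = 0.18) and KLF2, too low to be called at 24 h, by 0.06 ± 0.24 (adjusted p = 0.91).

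At 24 h neither single stimulus gave a call among the 10. Under EGF the changes beside that of KLF7 were -0.29 ± 0.26 for KLF2, -0.07 ± 0.08 for KLF3, 0.19 ± 0.08 for KLF4, 0.01 ± 0.10 for KLF5, 0.18 ± 0.10 for KLF6, 0.21 ± 0.14 for KLF9, 0.17 ± 0.21 for KLF10, 0.02 ± 0.08 for KLF11 and 0.10 ± 0.08 for KLF13 (adjusted p of 0.24 to 0.98). Under AII they were 0.12 ± 0.26 for KLF2, -0.07 ± 0.08 for KLF3, 0.02 ± 0.08 for KLF4, -0.09 ± 0.10 for KLF5, -0.01 ± 0.10 for KLF6, 0.16 ± 0.16 for KLF7, 0.02 ± 0.14 for KLF9, 0.06 ± 0.21 for KLF10, -0.02 ± 0.08 for KLF11 and 0.05 ± 0.08 for KLF13. None of the 10 was called under AII at 24 h, none had an unadjusted edgeR p under 0.05, and KLF2 and KLF7 were under 5 CPM in this comparison.

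The responses at both times were compared directly as the difference of the 2 log2 changes. Under AII + EGF, 4 of the 10 differed, and 11.6% of all genes did. KLF5 (-1.26 ± 0.14, adjusted p = 1.6e-08) and KLF13 (-0.79 ± 0.12, adjusted p = 2.5e-06) had lower changes at 24 h than at 6 h. KLF7 (1.06 ± 0.26, adjusted p = 0.0023) and KLF4 (0.62 ± 0.12, adjusted p = 1.5e-04) had higher ones. KLF4 was below control at 6 h and above it at 24 h. The KLF7 difference missed the threshold without control 6 h replicate 4 (0.81, adjusted p = 0.020) or AII + EGF 6 h replicate 3 (0.94, adjusted p = 0.010), and the KLF4 difference fell under the fold minimum without AII + EGF 24 h replicate 5 (0.57). For KLF10 it was -0.71 ± 0.32 (adjusted p = 0.10), and -0.49 (adjusted p = 0.0049) over the 33 libraries. For KLF6 it was 0.03 ± 0.15, with a change of similar size at both times. Under EGF 1 member differed, KLF5 (-0.67 ± 0.15, adjusted p = 0.0073, with 1.03% of genes), a call lost in 13 of 18 fits that left out 1 library. Under AII none did (0.138% of genes, 1 unadjusted edgeR p under 0.05), and KLF13 had -0.33 ± 0.12 (adjusted p = 0.32).

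**Figure D5:**
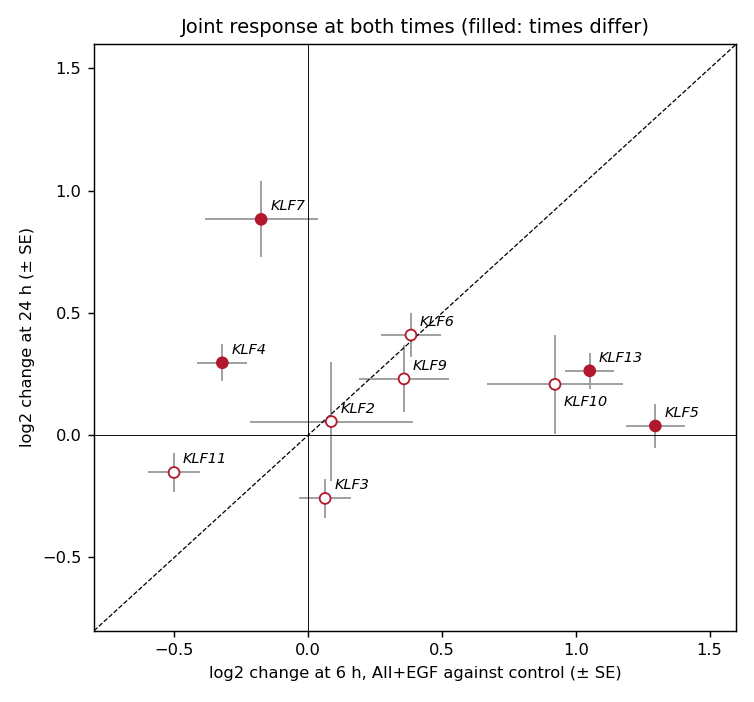
Log2 change under AII + EGF at 6 h (horizontal axis) and 24 h (vertical axis) for the 10 genes, with bars of 1 SE; the dashed line marks equal changes and filled points are the 4 genes whose responses differed between times. KLF5 and KLF13 lie far right of the line and KLF7 and KLF4 above it.

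Between control cells at 24 h and 6 h none of the 10 was called, while 6.73% of all genes were, none of the 10 was free of overlap (15.1% of all genes were) and 5 of the 10 had an unadjusted edgeR p under 0.05. KLF3 was lower at 24 h by 0.49 ± 0.09 on the log2 scale (adjusted p = 7.7e-05), under the fold minimum, from 75.3 to 121 CPM at 6 h to 67.2 to 86.6 CPM at 24 h. Without control 6 h replicate 6, the low library, it fell by 0.62 and was called, as it was over the 33 libraries. The other 6 h controls, at 115 to 121 CPM of KLF3, lay above every 24 h control. KLF7 was higher by 0.64 ± 0.19 (adjusted p = 0.0078), but its mean of 3.86 CPM is under the 5 CPM minimum. KLF5 changed by -0.26 ± 0.10 (adjusted p = 0.045), KLF10 by 0.51 ± 0.23 (adjusted p = 0.088) and KLF4 by -0.18 ± 0.08 (adjusted p = 0.087). Leaving out 1 library moved the KLF10 change between 0.32 and 0.62. The overlap of KLF10 came from control 24 h replicate 6, at 50.3 CPM. The other 24 h controls were at 90.7 to 115 CPM of KLF10, against 38.9 to 77.3 CPM at 6 h. KLF2, KLF6, KLF9, KLF11 and KLF13 changed by -0.04 to 0.13 (adjusted p of 0.54 to 1).

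Across the 8 group means of log2 CPM, KLF5 and KLF13 ran together (Pearson r = 0.95) and opposite to KLF11 (-0.93 and -0.95), and KLF3 ran opposite to KLF7 (-0.96). These are descriptions over 8 points that share libraries, and those of KLF5, KLF13 and KLF11 are set mostly by a few groups. KLF3 and KLF7 split by time, not by stimulus. Group means of KLF3 were 107 to 120 CPM at 6 h and 63.6 to 76.1 CPM at 24 h. Those of KLF7 were 2.13 to 2.48 CPM at 6 h and 3.86 to 7.13 CPM at 24 h. For the 3 called genes with the largest changes at 6 h, the most similar genes over the same 8 means were sought among 12417 genes above 5 CPM in a group. They were RCOR1 (0.998), AIDA (0.994) and LYSMD2 (0.994) for KLF5. For KLF13 they were ICOSLG (0.995), its near copy FP565260.3 (0.995), whose reads may be split between both, and DDN (0.994). For KLF10 they were RAPGEF4 (0.995), NPAS1 (0.990) and NDRG1 (0.986).

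Of 8 other Krüppel-like factors, 5 could be tested, and KLF8, a repressor that works through CtBP, was the one called. It was at 54.7 to 88.5 CPM in control, 38.1 to 41.3 CPM under EGF and 19.2 to 27 CPM under AII + EGF at 6 h, without overlap. The changes were -0.80 ± 0.19 under EGF (adjusted p = 0.0047) and -1.57 ± 0.18 under AII + EGF (adjusted p = 3.9e-09), opposite in sign to those of KLF5 and KLF13. At 24 h it was -0.50 ± 0.14 under AII + EGF (adjusted p = 0.0082, under the fold minimum), and the difference between times was 1.06 ± 0.22 (adjusted p = 3.6e-04). KLF12, KLF14, KLF15 and KLF16 gave no call in any comparison. In control at 6 h KLF14 was at 0.634 CPM and KLF15 at 2.95 CPM, under the 5 CPM that a call needs in the higher group. None of the 9 SP factors, the 7 corepressors (CTBP1, CTBP2, SIN3A, SIN3B, HDAC1, HDAC2, WIZ) or the 4 coactivators (EP300, CREBBP, KAT2B, KAT5) was called against control at either time. Neither were the 5 tested genes of the ERK5 and MEF2 route (6 listed), which is known to induce KLF2 and KLF4. No call does not mean no change: the SP factors ran from -3.57 to 0.21 under AII + EGF at 6 h (median -0.25). The lowest of them reached the fold minimum, so it missed the adjusted p or the 5 CPM that a call also needs. In the difference of the AII + EGF response between times, SP1 (0.70 ± 0.15), KAT5 (0.61 ± 0.15) and MAP2K5 (0.66 ± 0.17) were called higher at 24 h and MEF2A (-0.60 ± 0.15) lower.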

How the data were processed

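Poly(A) RNA was sequenced in 48 libraries. Per the labels and the study's methods, the authors aligned reads to hg38 with HISAT2 2.1.0 and assigned them with featureCounts, and they deposited raw counts per Ensembl gene without normalisation. Strand setting and the treatment of reads mapping to several places are not given in the sources used here. No other columns of sample values were present. Groups came from the labels; replicate numbers follow accession order and pair nothing.

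Counts were analysed in R 4.3.3 with edgeR 4.0.16 (filterByExpr by group, TMM factors, 1 quasi-likelihood fit over 38 libraries and 8 groups without covariates, 18 comparisons, Benjamini-Hochberg over 19626 genes). SE is the log2 change divided by the root of F. The step was tested on simulated data. Alternatives were DESeq2 1.42.0, RLE factors, other filters and thresholds, other sets of libraries, title runs (stretches of titles passing once through the 4 treatments) as a block, and leaving out each library. The members and lists were chosen with earlier results of these data known. All 10 members are named in each comparison with control, genes of other lists where called, and the 3 genes most like each of 3 members. Promoters are RefSeq windows (250 bases before to 50 after a start), motifs were sought on both strands, and figures were drawn with matplotlib. KLF3 and KLF10 had no window.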

Additional observations from a re-analysis of the deposited data

Results flagged for a closer look

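Within groups of 4 to 10 libraries, a library was marked where its gap to the next value took up more of the group's range than Dixon's 95% critical value allows. This was tested in 70 sets of a gene and group, and 7 were marked, where chance gives about 1 in 20. In 6 of the 7 the marked library was the lowest one and was replicate 6, from title runs 7 and 8. KLF10 was marked in AII 24 h replicate 6 (48.6 CPM) and EGF 24 h replicate 6 (51.1 CPM). KLF9 was marked in AII 24 h replicate 6 (39.6 CPM) and control 6 h replicate 6 (36.1 CPM). KLF3 was marked in control 6 h replicate 6 (75.3 CPM), and KLF6 in AII + EGF 24 h replicate 6 (31.5 CPM). The one high library was AII 24 h replicate 3 for KLF6 (36.5 CPM). The part of these libraries was measured by leaving them out for those results above where such values are given, and what sets them apart was not tested.

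Responses that differed between 6 h and 24 h by the edgeR test of the difference were those of KLF5 under EGF (-0.67 on the log2 scale) and, under AII + EGF, those of KLF5 (-1.26), KLF13 (-0.79), KLF7 (1.06) and KLF4 (0.62).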

How the results depend on the processing

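Counts are members called of 10. Under AII + EGF against control at 6 h, 3 were called (6 without the fold minimum, 2 with 48 or 40 libraries, 4 without title runs 7 and 8, 2 to 3 with 1 library left out), and KLF5 and KLF13 were in each. The 24 h count of 1 became 4 without the fold minimum, and 1 was called with any library left out. For EGF at 6 h the 2 calls fell to 1 with all 48 libraries, with either library of each pair kept (42 libraries), in a fit of only the groups compared, with the title run block and without title runs 7 and 8, to 0 with 40 libraries (doubted labels kept), and to 1 to 2 with 1 library left out. EGF at 24 h went from 0 to 1 at an adjusted p under 0.05, with DESeq2 and with the title run block, by KLF7 in each. AII + EGF against EGF at 6 h went from 1 to 0 with 48 or 40 libraries and 2 without the fold minimum (0 to 1 with 1 library left out). Against AII at 6 h it went from 2 to 1 with 48 or 40 libraries and to 3 without the fold minimum, at an adjusted p under 0.05, without a low-count filter, with only the groups compared, with the title run block and without title runs 7 and 8, and at 24 h from 1 to 2 without the fold minimum (0 to 1 with 1 library left out). EGF against AII at 6 h went from 0 to 1 without the fold minimum. Control over time went from 0 to 1 without the abundance minimum, without the fold minimum, without title runs 7 and 8 and without control 6 h replicate 6 (0 to 1). The difference between times fell from 4 to 2 under AII + EGF with 48 or 40 libraries, and to 3 with only the groups compared or 1 set of 42 libraries (3 to 4 with 1 left out). Under EGF it went from 1 to 0 with 48, 40 or 33 libraries, other filters on low counts or only the groups compared, and to 2 with 42 libraries (0 to 1 with 1 left out). The linear excess of KLF13 at 6 h was -3.35 CPM with 40 libraries, of opposite sign. No log2 change of a member that passed in either fit changed sign; 237 of 4170 values did where neither passed. The cause was not tested, beyond fewer or other libraries and thresholds by construction.

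Over all genes, calls at 6 h were 92 for AII (62 to 146 over alternatives), 381 for EGF (121 to 604) and 2351 for AII + EGF (1604 to 3697), and 574 (33 to 896) and 1492 (302 to 2834) for AII + EGF against EGF and AII. At 24 h they were 48 (2 to 137) for EGF and 569 (344 to 1481) for AII + EGF. Differences between times were 27 (14 to 68), 203 (1 to 540) and 2273 (1292 to 2775) for AII, EGF and AII + EGF, and control over time 1320 (352 to 3106). The interaction at 6 h gave 45 (0 to 168). No paired analysis was possible because the labels carry no replicate numbers to pair by. The title run block is a stretch of title order, which the labels do not give as a pairing, and it was fitted for every comparison but control over time, since runs are nested in time. KLF2 (0.74 to 2.36 CPM over libraries) and KLF7 (1.6 to 8.46 CPM) have wide intervals, and KLF2 could not be called in any comparison with the 5 CPM minimum.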
